A study of Rattus norvegicus with 8 samples.

Results

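Genes of renal gluconeogenesis and ammonia production were followed in kidneys of 4-week-old HSRA rats. The 7 genes listed were Pc, Pck1, Fbp1, G6pc1, Glud1, Slc38a3 and Glul, chosen by name, and a gene counted as measured where a probe set of the array was annotated to that symbol alone. This held for 5 genes with 1 probe set each, Pc, Pck1, Fbp1, Glud1 and Slc38a3, of 17245 genes measured in this way in the whole series. The only probe set naming G6pc1 also named another gene, and none is listed for Glul, so these 2 genes were not analysed here.

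Of the 8 rats, 4 (HSRA-S) were born with a solitary kidney, and the other 4 (HSRA-C), with a pair of kidneys, served as the control. Both groups belong to the same model, HSRA, which was derived from a heterogeneous stock and in which one kidney can fail to form, so the controls share its genetic background. No treatment is recorded, and sex, litter, feeding state and acid-base state are not stated in the labels. Each sample was hybridised to 1 Affymetrix Rat Gene ST array, and levels are RMA intensities (background-corrected, normalised and summarised over the probes of a transcript) on the log2 scale. The sample titles name the kidney without saying which part of it was used. In such tissue, fewer cells of a type, less RNA per cell and unequal shares of the kidney zones cannot be told apart.

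The kidney is, beside the liver, the organ that makes glucose, and it does so in the proximal tubule from lactate, glutamine and glycerol. Glutamine taken up by proximal tubule cells is stripped of its nitrogen, which leaves the cell as ammonium and carries acid into the urine, while the carbon skeleton feeds bicarbonate and glucose production. In rats the pathway is well known for its rise in metabolic acidosis, when glutamine uptake, glutamate breakdown and Pck1 increase.

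The promoter of Pck1 is shown with those of Fbp1 and Glud1 because the regulation of Pck1 by cAMP, the second messenger of glucagon and parathyroid hormone, runs through a short element close to its start. The 3 windows run from 250 bases before to 50 bases after the transcript start used by the reference table and are taken from RefSeq, build GRCr8, which listed a window for 5 of the 7 genes. The start used for Fbp1 lies inside the annotated span of the gene, not at its outer end. Capitals mark a form of the cAMP response element.
Pck1 (GRCr8 chr3:182348322-182348621, + strand): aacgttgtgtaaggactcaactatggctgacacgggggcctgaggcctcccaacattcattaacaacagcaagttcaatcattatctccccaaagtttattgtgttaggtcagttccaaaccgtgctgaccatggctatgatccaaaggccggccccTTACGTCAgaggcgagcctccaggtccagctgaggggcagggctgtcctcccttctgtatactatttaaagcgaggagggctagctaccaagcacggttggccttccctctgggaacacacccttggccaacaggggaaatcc
Fbp1 (GRCr8 chr17:2213457-2213756, + strand): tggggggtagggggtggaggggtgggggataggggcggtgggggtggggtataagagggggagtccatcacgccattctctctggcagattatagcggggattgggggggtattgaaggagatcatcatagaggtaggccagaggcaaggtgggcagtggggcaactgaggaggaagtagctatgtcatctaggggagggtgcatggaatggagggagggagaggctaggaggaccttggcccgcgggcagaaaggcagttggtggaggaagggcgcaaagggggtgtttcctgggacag
Glud1 (GRCr8 chr16:9646319-9646618, + strand): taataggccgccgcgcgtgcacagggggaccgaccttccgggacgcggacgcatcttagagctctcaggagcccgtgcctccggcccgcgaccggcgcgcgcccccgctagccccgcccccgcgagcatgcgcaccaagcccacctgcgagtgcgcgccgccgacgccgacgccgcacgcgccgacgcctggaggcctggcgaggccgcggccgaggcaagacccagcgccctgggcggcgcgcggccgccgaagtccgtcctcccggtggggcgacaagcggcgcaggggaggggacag
The letters TTACGTCA stood in the Pck1 window from position -93 to -86 relative to the start, on the strand of the gene. They occur on either strand in 0.807% of 33469 promoter windows of this length. The other form, TGACGTCA, was found in none of the 3 windows and occurs in 1.83% of all windows. The same held for the palindromic HNF1 motif (0.00299% of windows), for the nuclear receptor element DR1 in a long form (0.194%) and in the short form TGACCTTTG (0.424%), which can overlap, for the palindromic glucocorticoid response element (0.0149%) and for the TATA box letters TATAAA (14.2%), each searched on both strands. G and C made up 53.3% of the Pck1 window, 61.0% of the Fbp1 window and 78.0% of the Glud1 window, against a median of 51.7% over all windows.

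The 5 measured genes lay slightly higher on average in the solitary kidney, by 1.05-fold to 1.14-fold, and none passed the test. Their log2 differences (HSRA-S minus HSRA-C) were all above 0, with a median of 0.12, where 55.5% of the 13796 tested genes lay above 0 and the median of all genes was 0.015. With limma and Benjamini-Hochberg adjustment over all tested genes, 0 of the 5 passed an adjusted p under 0.05, as did 0% of all genes. At an unadjusted p under 0.05 there were 0 of the 5, against 12.1% of all genes. The 2 groups overlapped for each of the 5, whereas 6.29% of all genes did not overlap.

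Pc encodes pyruvate carboxylase, the mitochondrial enzyme that turns pyruvate into oxaloacetate and so opens the route from lactate to glucose. Its intensity was 979, 885, 807 and 1108 in HSRA-S replicates 1 to 4, against 865, 824, 797 and 846 in HSRA-C replicates 1 to 4. The solitary kidneys 1, 2 and 4 lay above every control, while replicate 3 lay among the controls. On the log2 scale, the solitary kidneys averaged 9.87 ± 0.20 and the controls 9.70 ± 0.051 (SD, n = 4 each), a difference of 0.17 with a 95% interval from -0.036 to 0.38 (adjusted p = 0.484). As a fold, the upper end of that interval is 1.30. The difference was 0.24 without HSRA-S replicate 3 (unadjusted p = 0.0190, adjusted p = 0.343) and 0.092 without HSRA-S replicate 4.

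Pck1 encodes the cytosolic phosphoenolpyruvate carboxykinase, which turns oxaloacetate into phosphoenolpyruvate and is the step of the pathway controlled mainly through the amount of its mRNA. Its intensity was 1579, 1440, 1161 and 2401 in the solitary kidneys, against 1564, 1459, 1267 and 1319 in the controls. The highest and the lowest of the 8 values, HSRA-S replicates 4 and 3, were both solitary kidneys and stood 2.07-fold apart, while the 4 controls lay within 1.23-fold of each other. On the log2 scale, the solitary kidneys averaged 10.63 ± 0.44 and the controls 10.45 ± 0.14 (SD, n = 4 each), with a difference of 0.18 (95% interval -0.23 to 0.60, adjusted p = 0.722). That interval allows anything from 0.852-fold to 1.51-fold. HSRA-S replicate 4 decided the direction, since the difference was -0.016 without it, and without HSRA-S replicate 3 it was 0.33.

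Fbp1 encodes fructose-1,6-bisphosphatase, which removes a phosphate further along the route to glucose. The intensity was 2351, 2155, 1932 and 2488 in HSRA-S, against 2145, 2172, 1865 and 1987 in HSRA-C. HSRA-S replicates 4 and 1 were the highest of the 8, and HSRA-S replicate 3 was the lowest but one, so the order of the solitary kidneys was the same as for Pc and Pck1. The difference was 0.12 (SE 0.089, 95% interval -0.074 to 0.32, adjusted p = 0.600), which as a fold is bounded by 0.950 and 1.25. It was 0.19 without HSRA-S replicate 3 (unadjusted p = 0.0462, adjusted p = 0.402). Without HSRA-S replicate 4 it was 0.070 (unadjusted p = 0.449), and without HSRA-C replicate 3 it was 0.081 (unadjusted p = 0.414).

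Glud1 encodes glutamate dehydrogenase, the mitochondrial enzyme that splits glutamate into ammonium and alpha-ketoglutarate. Its intensity was 1105, 1043, 1020 and 1137 in HSRA-S, against 1070, 1145, 868 and 914 in HSRA-C. The 4 solitary kidneys were close together, within 1.11-fold, and the controls fell into a higher pair, replicates 1 and 2, and a lower pair, replicates 3 and 4. The log2 difference was 0.11 (SE 0.093, 95% interval -0.093 to 0.32, adjusted p = 0.650). Without HSRA-C replicates 3 and 4 it was -0.043 (95% interval -0.23 to 0.14).

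Slc38a3 encodes the sodium-coupled glutamine transporter SNAT3, which carries glutamine across the basolateral membrane of proximal tubule cells and rises in acidosis in rats. The intensity was 250, 346, 347 and 230 in HSRA-S, against 300, 419, 233 and 193 in HSRA-C. Both the highest and the lowest value were controls, replicates 2 and 4, 2.18-fold apart, and the solitary kidneys lay between them. The difference was 0.073 (SE 0.23, adjusted p = 0.928) with a 95% interval from -0.44 to 0.58. Without HSRA-C replicates 3 and 4 the sign turned, to -0.30 (95% interval -0.78 to 0.18, adjusted p = 0.977), and it also turned without any one of HSRA-S replicates 2 and 3 and HSRA-C replicates 3 and 4, with values down to -0.096.

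**Figure D1:**
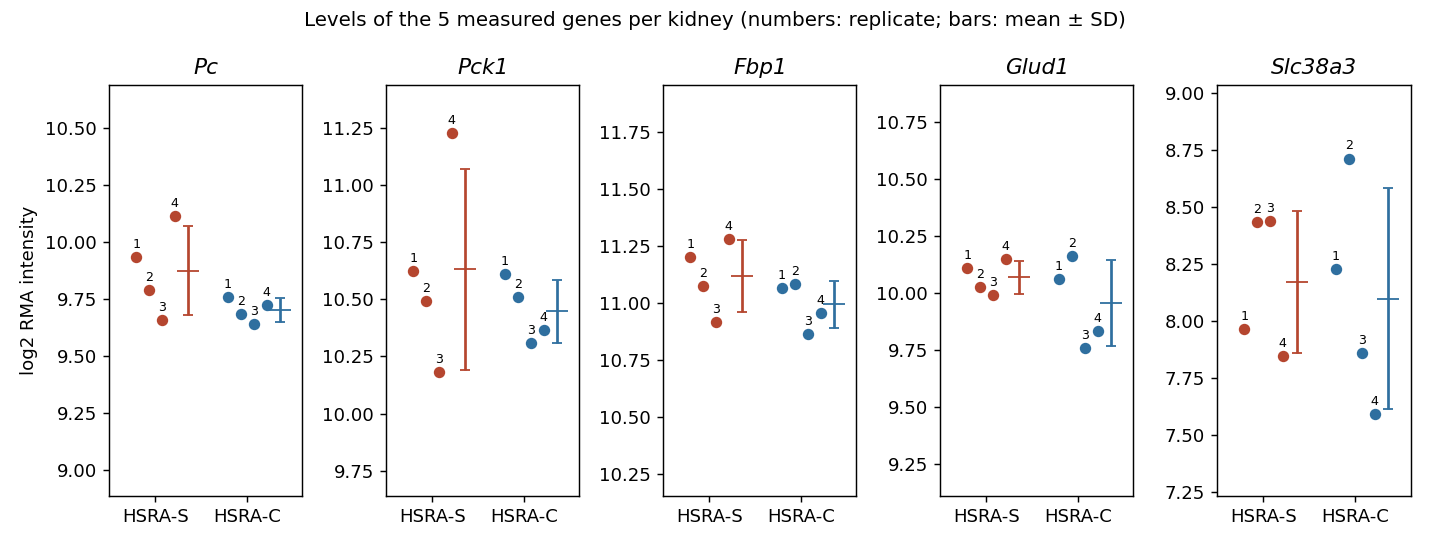
Each panel plots the log2 RMA intensity of 1 gene in the 4 HSRA-S and 4 HSRA-C kidneys, with points numbered by replicate and bars for the mean ± SD; all panels span the same log2 range. Groups overlap in every panel, Pck1 is widest among the solitary kidneys (SD 0.44) and narrow among the controls (SD 0.14), and Slc38a3 is wide in both groups.

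Pooled over both groups, Pck1 and Slc38a3 varied far more between animals than the other 3 genes did. For Pck1 this did not hold among the controls alone. There its SD was 0.14, against 0.19 for Glud1, 0.10 for Fbp1, 0.051 for Pc and 0.49 for Slc38a3. The residual SD within groups was 0.33 for Pck1 and 0.41 for Slc38a3 on the log2 scale, larger than that of 97.2% and 98.8% of tested genes. For Pc, Fbp1 and Glud1 it was 0.14, 0.13 and 0.14, at percentiles 65.7, 60.2 and 65.3. The difference between groups was 0.56 residual SDs for Pck1 and 0.18 for Slc38a3, and 1.20 for Pc. The 2 variable genes did not follow each other: HSRA-S replicate 4 was highest of 8 for Pck1 and rank 7 for Slc38a3, and HSRA-S replicate 3 was lowest of 8 for Pck1 and rank 2 for Slc38a3. Pc, Pck1 and Fbp1 shared the order replicate 4, 1, 2, 3 from high to low among the solitary kidneys, and Glud1 had that order too.

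Markers of kidney zones differed between arrays, and the levels of the 5 genes went with them on some arrays and not on others. Umod, Slc34a1, Nphs1 and Aqp2, which mark thick limb, proximal tubule, podocyte and collecting duct, were at log2 levels of at least 6.64 on every array. Slc14a2, which moves urea in the collecting duct of the inner medulla, was at 6.85, 7.04, 7.22 and 4.44 in HSRA-S replicates 1 to 4, against 5.99, 6.44, 8.86 and 9.0 in HSRA-C replicates 1 to 4. The mean log2 level of 25 proximal tubule genes minus that of 21 collecting duct genes, which include Slc34a1, Aqp2 and Slc14a2 but none of the 5 measured genes, was 2.16, 2.22, 2.20 and 2.82 in HSRA-S, against 2.36, 2.23, 1.70 and 1.65 in HSRA-C. HSRA-C replicates 3 and 4, with the lowest values, were at ranks 6 to 8 of 8 for Pck1, Fbp1, Glud1 and Slc38a3. For Pc they were at ranks 8 and 5. HSRA-S replicate 4, with the highest value, was at rank 1 for Pc, Pck1 and Fbp1 and rank 2 for Glud1, but at rank 7 for Slc38a3. HSRA-S replicates 1 and 3, close together at 2.16 and 2.20, were at ranks 2 and 7 for Pc and Fbp1. For Pck1 they were at ranks 2 and 8. HSRA-C replicate 1, next highest at 2.36, was at ranks 3 to 5 for the 5 genes. The part of zone shares in these levels was not tested.

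**Figure D2:**
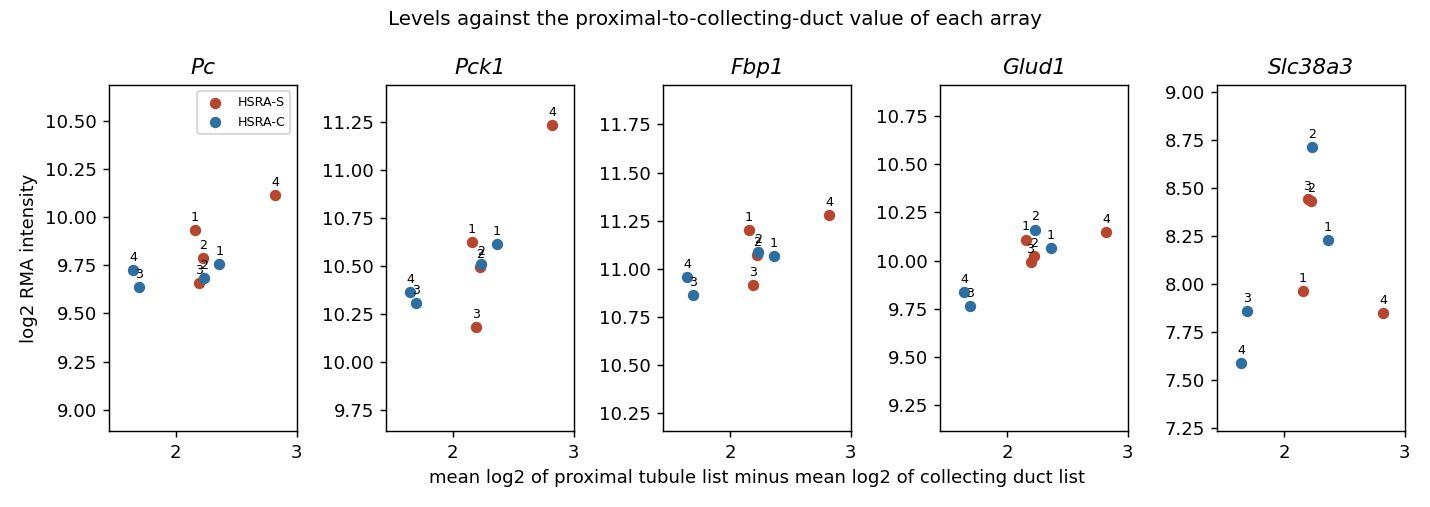
The log2 RMA intensity of each gene is plotted against the proximal tubule mean minus the collecting duct mean of the same array, for 4 HSRA-S and 4 HSRA-C kidneys numbered by replicate. HSRA-S replicate 4 sits far right at 2.82 and high for every gene except Slc38a3, and HSRA-C replicates 3 and 4 sit left at 1.70 and 1.65.

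With this difference of lists as a covariate in the fit, the 5 genes no longer lay on one side. The log2 difference was 0.082 for Pc, 0.021 for Fbp1, -0.0088 for Glud1, -0.060 for Slc38a3 and -0.086 for Pck1, with a median of -0.0088. In that fit 58.2% of all genes lay above 0 and the median of all genes was 0.022. Without HSRA-C replicates 3 and 4, Pc was at 0.15, Pck1 at 0.071 and Fbp1 at 0.042, with Glud1 and Slc38a3 below 0, where 55.2% of all genes lay above 0. None of the 5 had an unadjusted p under 0.05 in either fit (0 of 5 in both, against 8.19% of all genes with the covariate and 4.85% without the 2 samples), and 0 genes of all passed adjustment in either.

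**Figure D3:**
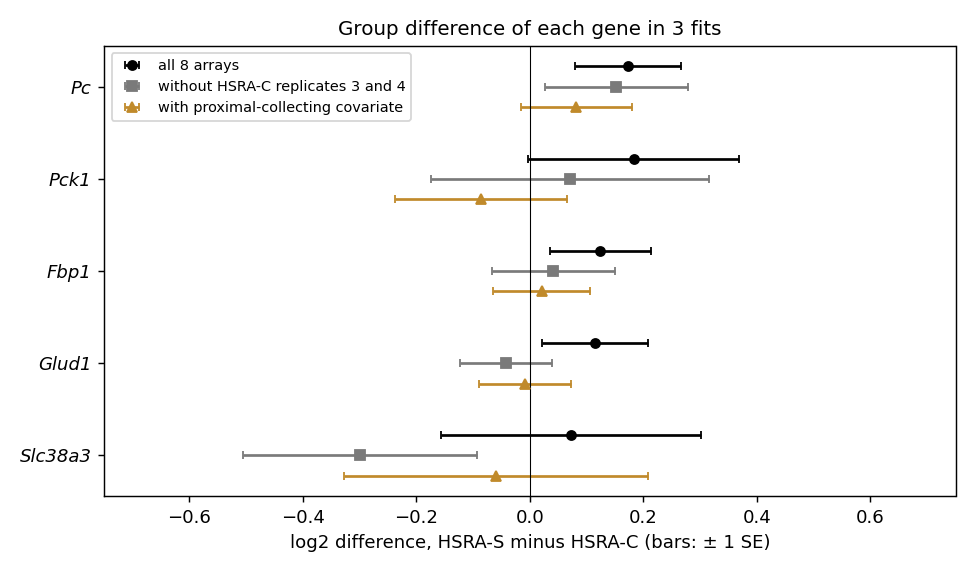
Log2 differences (HSRA-S minus HSRA-C, bars ± 1 SE) are plotted for the 5 genes in the fit of all 8 arrays, without HSRA-C replicates 3 and 4, and with the proximal-to-collecting-duct covariate. Pc stays above 0 in all 3 fits (0.17, 0.15 and 0.082), while Slc38a3 is at 0.073, -0.30 and -0.060.

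Markers of fat, liver and adrenal gland were dim as list means, and those of blood were higher. Fat and liver both express Pck1. All 10 adipocyte genes passed the filter on dim genes, with a mean log2 level of 4.62 to 4.77 in HSRA-S and 4.51 to 4.75 in HSRA-C. Adipoq, the adipocyte hormone adiponectin, was at 4.68 to 5.25 in HSRA-S and 4.74 to 5.25 in HSRA-C. Brighter in that list was Lipe, at 6.58 to 6.79 in HSRA-S and 6.47 to 6.65 in HSRA-C. Cidec was at 5.36 to 6.22 in HSRA-S and 5.93 to 6.66 in HSRA-C. Of 12 measured liver genes 4 passed the filter, the list mean was 3.59 to 3.64 in HSRA-S and 3.47 to 3.58 in HSRA-C, and Alb, serum albumin, stayed below the filter. HSRA-S replicate 4, the highest for Pck1, had the lowest Adipoq value of the 8 arrays. Its mean of the adipocyte list was the highest by little (4.77, against 4.75 in HSRA-C replicate 1). The liver list mean was 3.64 both there and in HSRA-S replicate 2, close to the filter limit of 3.63. The part of these tissues in the Pck1 value of HSRA-S replicate 4 was not tested. Of 8 measured adrenal genes 5 passed, with list means of 3.96 to 4.10 in HSRA-S and 3.97 to 4.14 in HSRA-C. Leukocyte genes had list means of 5.12 to 5.55 in HSRA-S and 4.95 to 5.22 in HSRA-C, and erythrocyte genes 7.28 to 7.72 in HSRA-S and 7.11 to 7.80 in HSRA-C. The list means were 8.84 to 9.12 in HSRA-S and 8.89 to 8.99 in HSRA-C for thick limb and distal tubule, and 7.20 to 7.48 in HSRA-S and 7.38 to 7.5 in HSRA-C for glomerulus. Hbb, a beta-globin of red cells, was at 10.78, 10.91, 10.65 and 9.95 in HSRA-S, against 11.03, 10.20, 10.23 and 9.58 in HSRA-C. The part of blood and leukocytes in the levels of the 5 genes was not tested.

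The enzymes and carriers around the measured steps leaned to the higher side in the solitary kidney without any passing adjustment. Of 20 tested partners of gluconeogenesis, 18 were above 0 and 2 below, with a median log2 difference of 0.13. At an unadjusted p under 0.05 there were 5 above and 0 below, against 7.36% and 4.69% of all genes. These were Pgk1, a kinase that works in both glycolysis and its reversal (0.30, SE 0.084), Tpi1, triosephosphate isomerase (0.17, SE 0.053), Slc37a4, which carries glucose 6-phosphate into the endoplasmic reticulum for the last step (0.36, SE 0.14), Mpc1, a subunit of the mitochondrial pyruvate carrier (0.17, SE 0.072), and Got1, the cytosolic aspartate aminotransferase (0.21, SE 0.093), with adjusted p-values of 0.331 to 0.408. Tpi1 was tight within groups, at 10.50, 10.48, 10.48 and 10.51 in HSRA-S, against 10.29, 10.33, 10.37 and 10.29 in HSRA-C. Its groups did not overlap, as for 3 of the 20 partners and 6.29% of all genes. Its difference was 0.19 without HSRA-C replicates 3 and 4. Slc37a4 was at 9.29, 9.10, 9.01 and 9.43 in HSRA-S, against 9.02, 9.12, 8.62 and 8.62 in HSRA-C, and its difference was 0.13 without those 2 samples. Pck2, the mitochondrial counterpart of Pck1, was at 0.017 (SE 0.072, adjusted p = 0.946). The list was at a median of 0.058 without HSRA-C replicates 3 and 4 and 0.039 with the covariate. There 1 above and 1 below, and 2 above and 0 below, had an unadjusted p under 0.05. In either direction, 4.85% and 8.19% of all genes had such a p in these 2 fits. The proximal tubule list also leaned higher over the 8 arrays, with 16 of 25 above 0 and a median of 0.088. In it 7 above and 2 below had an unadjusted p under 0.05, against 7.36% and 4.69% of all genes. Its median was -0.0094 without HSRA-C replicates 3 and 4. With the covariate, which is built in part from this list, it was -0.00096.

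Among 23 tested genes of ammonia production and glutamine handling, 14 were above 0 and 9 below, with a median of 0.068, and those with an unadjusted p under 0.05 were 8 above and 0 below, against 7.36% and 4.69% of all genes. These counts were 2 above and 1 below without HSRA-C replicates 3 and 4, and 4 above and 0 below with the covariate. Of all genes, 4.85% and 8.19% had such a p in those 2 fits, in either direction. The 4 of smallest p were amino acid transporters of the proximal tubule, 3 of which also belong to the proximal tubule list. The covariate is thus built in part from these 3 genes, and their values with it are not independent of it. Slc7a8 was at 0.44 (SE 0.10), and Slc3a2, the heavy chain that partners Slc7a7 and Slc7a8, at 0.29 (SE 0.069). Slc6a19, the apical neutral amino acid transporter, was at 0.48 (SE 0.13), and Slc7a7 at 0.69 (SE 0.20). Each had an adjusted p of 0.331 and no overlap between groups, where 6.29% of all genes did not overlap. These 4 were picked by smallest p, which favours a lack of overlap. Without HSRA-C replicates 3 and 4 they were at 0.29, 0.24, 0.33 and 0.38. The transporters of ammonium and acid showed no common side. Slc9a3, the apical sodium-proton exchanger that also moves ammonium, was at 0.17 (SE 0.10, adjusted p = 0.531), and at 0.029 without HSRA-C replicates 3 and 4. Slc4a4 was at 0.38 (SE 0.13) and Slc9a2 at 0.22 (SE 0.094), and both were at 0.16 without those 2 samples. Rhbg was at -0.18 (SE 0.090), and Rhcg, the ammonia channel of the collecting duct, at -0.14 (SE 0.070, adjusted p = 0.449). Rhcg was at log2 9.97, 9.80, 9.79 and 9.70 in HSRA-S, against 9.99, 9.99, 9.97 and 9.87 in HSRA-C, and at -0.18 without HSRA-C replicates 3 and 4.

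Citrate and dicarboxylate genes were above 0 in 12 of 13 cases, with a median of 0.17 that became 0.065 without HSRA-C replicates 3 and 4. Suclg1, a subunit of the citric acid cycle enzyme succinate-CoA ligase, was at 0.27 (SE 0.078), Slc25a13, the aspartate-glutamate carrier, at 0.23 (SE 0.095), and Slc25a1, the mitochondrial citrate carrier, at 0.18 (SE 0.066), the 3 with an unadjusted p under 0.05 in that list and adjusted p-values of 0.331 to 0.388. That count of 3 above and 0 below stood against 7.36% and 4.69% of all genes, and was 0 above without HSRA-C replicates 3 and 4 and 1 above with the covariate. Slc13a2, the apical carrier that reclaims citrate from the urine, was at 0.26 (SE 0.15, adjusted p = 0.518), and Slc13a3, the basolateral dicarboxylate carrier, at 0.17 (SE 0.082).

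Regulators of Pck1 and G6pc1 were split, with 16 above and 12 below 0 of 28 tested and a median of 0.016. Here the genes with an unadjusted p under 0.05 were 1 above and 5 below 0, against 7.36% and 4.69% of all genes. They were 0 above and 1 below both without HSRA-C replicates 3 and 4 and with the covariate. Gcgr, the glucagon receptor, was at log2 6.94, 6.80, 7.01 and 6.50 in HSRA-S, against 7.01, 7.39, 7.15 and 7.14 in HSRA-C, a difference of -0.36 (SE 0.12, adjusted p = 0.338). Its groups did not overlap, with HSRA-S replicate 3 just under HSRA-C replicate 1, and the difference was -0.39 without HSRA-C replicates 3 and 4. Crtc2 and Crtc1, coactivators that carry the cAMP signal to CREB, were at -0.15 and -0.15. Foxo1, the insulin-restrained activator of gluconeogenic genes, was at -0.14, and the zinc finger factor Zbtb20 at -0.17. All had an adjusted p of 0.358 to 0.391 and no overlap. Without HSRA-C replicates 3 and 4, Crtc2, Crtc1, Foxo1 and Zbtb20 were at -0.069, -0.095, -0.16 and -0.12. With Gcgr, 5 of the 28 genes had no overlap, against 6.29% of all genes. They are the same 5 that had an unadjusted p under 0.05 below 0, and a small p favours a lack of overlap. Ppara, the fatty acid-sensing nuclear receptor, was the 1 above 0, at 0.36 (SE 0.16), and at 0.15 without those 2 samples. Hnf4a, a proximal tubule transcription factor, was at 0.20 (SE 0.095, adjusted p = 0.432) and at 0.032 without HSRA-C replicates 3 and 4. Nr3c1, the glucocorticoid receptor, was at 0.063 (SE 0.058), and Ppargc1a, the coactivator of mitochondrial and gluconeogenic genes, at 0.072 (SE 0.076).

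Genes that respond to fasting gave 6 above and 3 below 0 of 9 tested, with a median of 0.082. The acyl-CoA thioesterases Acot1 and Acot2 were at 0.27 (SE 0.11) and 0.24 (SE 0.10), the 2 with an unadjusted p under 0.05 (2 above and 0 below, against 7.36% and 4.69% of all genes). Without HSRA-C replicates 3 and 4 they were at 0.088 and 0.20. In that fit and with the covariate 0 genes of the list had such a p, against 4.85% and 8.19% of all genes. Pdk4, the kinase that shuts pyruvate dehydrogenase in fasting, was at -0.032 (SE 0.13), with levels of 6.62, 6.60, 6.83 and 7.05 in HSRA-S, against 6.48, 6.93, 6.99 and 6.84 in HSRA-C. HSRA-S replicate 4, highest for Pck1, was also highest of 8 for Pdk4, and HSRA-C replicate 1 was lowest for Pdk4 but at rank 3 of 8 for Pck1.

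**Figure D4:**
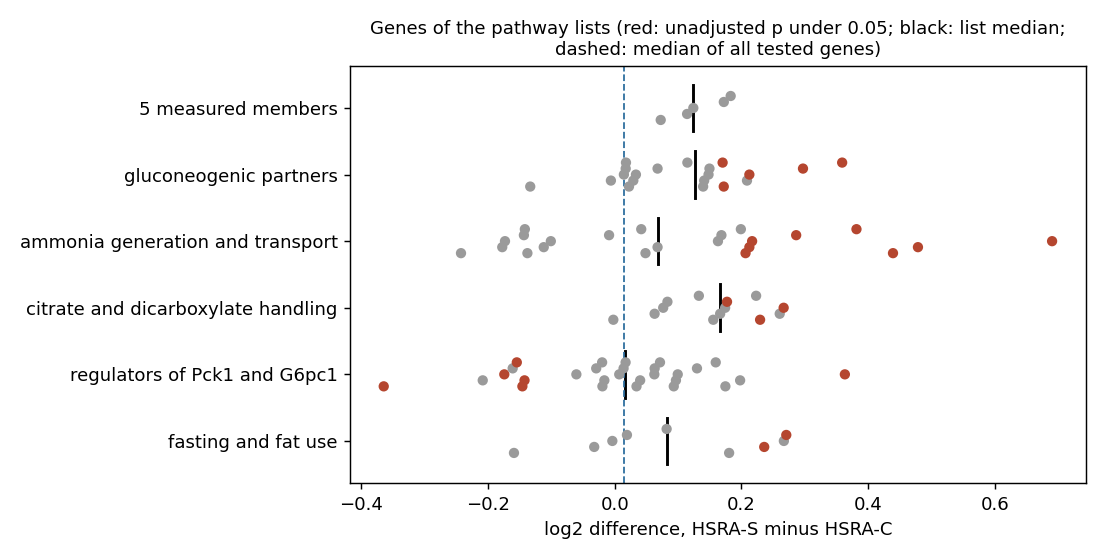
Each point is the log2 difference (HSRA-S minus HSRA-C) of 1 tested gene in the set named at the left, with red points for an unadjusted p under 0.05, black lines for list medians and a dashed line for the median of all tested genes (0.015). The regulators are centred near the median of all genes at 0.016, and the citrate and dicarboxylate list lies furthest right at 0.17.

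The genes whose log2 levels over the 8 arrays were most like those of a measured gene were sought among 13555 named genes, by Pearson correlation. Because they are the highest of so many, the values describe these arrays only. For Pc they were Retsat (0.98) and Ggta1 (0.98), and for Fbp1 Tom1 (0.97) and Rasl10b (0.96). Pck1 was most like Cyp2d2 (0.98), a cytochrome P450, and Napa (0.98), Glud1 most like Aldh9a1 (0.99), an aldehyde dehydrogenase, and Proc (0.98), and Slc38a3 most like Casq1 (0.99) and Taf4b (0.96). Over the 6 arrays without HSRA-C replicates 3 and 4 these correlations were between 0.94 and 0.99. No gene was named for more than 1 of the 5.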

How the data were processed

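Total RNA of 8 kidneys was labelled and hybridised to 1 array each. The values the authors deposited are intensities on a linear scale, summarised with RMA per the submitters' processing notes; software, version and genome build are not stated there. Array medians were 30.8 to 32.3. The log2 was taken. Differences of dim genes can be compressed on arrays, and 4 arrays per group limit the precision.

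Of 29214 probe sets, 18644 had exactly 1 gene symbol, 962 several and 9608 none; 18460 of the first matched RefSeq (GRCr8) by gene ID, with 0 symbols changed. The probe set of highest mean stood for each of 17245 genes, and the dimmest 20% (log2 mean up to 3.63) were left out, leaving 13796. The groups were compared with limma 3.58.1 in R 4.3.3 (lmFit and eBayes, group as the only term) with Benjamini-Hochberg adjustment at 0.05, and the steps were tested on simulated data. Intervals are 95% intervals. Samples are called biological replicates in the labels.

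The members, the 14 gene lists and the alternatives were chosen with earlier results of these data known, so lists are described by counts and medians without a test. Named were the measured genes, up to 4 genes of smallest p per pathway list, 10 genes named whatever their values (of which 1 is not reported here) and the 2 nearest genes by correlation. Got1, Crtc1, Ppara, Slc4a4, Slc9a2, Rhbg, Slc14a2, Adipoq, Lipe, Cidec, Alb, Hbb and the zone markers were named outside that rule. Alternatives were other filters, all probe sets, the mean of probe sets, an intensity trend, array weights, median scaling, leaving out samples, a replicate block and the covariate.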

Additional observations from a re-analysis of the deposited data

How the results depend on the processing

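None of the 5 genes passed the adjusted threshold in any of 18 alternatives (90 values, adjusted p of 0.343 at the lowest), and 10 of the 90 values turned sign. Pc and Fbp1 stayed above 0 in all 18, between 0.082 and 0.24 for Pc and between 0.021 and 0.19 for Fbp1. Without HSRA-C replicates 3 and 4 Glud1 was at -0.043 and Slc38a3 at -0.30. In that fit of 6 arrays 669 genes of all had an unadjusted p under 0.05, where 1663 did in the fit of 8 arrays. With the covariate Glud1 was at -0.0088, Pck1 at -0.086, Slc38a3 at -0.060 and the median of the 5 at -0.0088. Leaving out 1 sample moved Slc38a3 between -0.096 (HSRA-C replicate 4 left out) and 0.28 (HSRA-C replicate 2 left out), Pck1 between -0.016 and 0.33, the median between 0.081 and 0.19, the genes of the 5 with an unadjusted p under 0.05 between 0 and 2 (Pc and Fbp1, without HSRA-S replicate 3), and the genes of all from 1010 (HSRA-C replicate 3 left out, with 1017 when replicate 4 was) up to 1942. The cause was not tested. Over all probe sets 2895 had an unadjusted p under 0.05, of 29214 tested. With the dimmest 50% left out, with an intensity trend or with array weights, 1 gene of all passed adjustment, Hoxb5 in each case.

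With the replicate block, 0 genes passed, 1586 had an unadjusted p under 0.05 and the differences of the 5 genes were as without it (median 0.12, adjusted p of 0.463 to 0.891). Deviations of same-numbered samples correlated at -0.068, 0.070, 0.13 and -0.11, and 1 of 4 HSRA-S samples correlated best with its own number, so the numbers are not taken as pairs.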
